A study of Homo sapiens with 22 samples.

Results

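The globin genes and the gene of the alpha globin chaperone were followed through 22 RNA-seq libraries of HUDEP-2 cells, an immortalized human erythroid progenitor line derived from umbilical cord blood that can be induced to mature. The members were taken by symbol and number 10 of the 59087 gene names in each count table: the alpha-side globins HBA1, HBA2, HBZ, HBM and HBQ1, the beta-side globins HBB, HBD, HBG1 and HBG2, and AHSP. In the H2A.X experiment, 2 wild-type (WT) and 3 H2A.X knockout (KO) subclones were each sequenced before maturation (D0) and on day 6 of it (D6), which gave 10 libraries. The BAZ1B experiment held 12 libraries of the same days, from 3 WT replicates and from 3 subclones with BAZ1B knocked out. All of the lines carried the immortalizing construct of HUDEP-2, whose expression depends on doxycycline. KO lines were made with CRISPR/Cas9 and expanded from single cells, H2A.X by deletion around its coding region and BAZ1B by deletion of its first exon. The labels give replicate numbers only, and each number was taken as 1 subclone, also in the WT libraries. The spread between replicates is then the spread between subclones of 1 line. The question addressed here is how the level of each member, the balance of alpha to beta globin and the share of fetal globin differed between genotypes and days.

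Hemoglobin is a tetramer of alpha-side and beta-side chains, and its assembly requires that both sides be made in comparable amounts. Free alpha globin is unstable and is bound by AHSP, the alpha hemoglobin stabilizing protein. The genes of each cluster are used in the order of development: HBZ gives the embryonic alpha-like chain, HBG1 and HBG2 give the fetal beta-like chains, and HBA1, HBA2 and HBB give the adult chains, with HBD as a minor adult beta-like gene. HBM and HBQ1 are alpha-like genes whose products are not known parts of hemoglobin. HUDEP-2 cells are known for an adult pattern of globin expression.

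The members lie at 3 places in the genome (GRCh38, GENCODE 44 spans). The alpha cluster runs along the plus strand of chromosome 16, with HBZ at chr16:142728-154503, HBM at chr16:153892-166764, HBA2 at chr16:172876-173710, HBA1 at chr16:176680-177522 and HBQ1 at chr16:180459-181179. AHSP stands apart on the same chromosome, at chr16:31527900-31528803. The beta cluster runs along the minus strand of chromosome 11, with HBG2 at chr11:5253188-5505605, HBG1 at chr11:5248269-5249857, HBD at chr11:5232678-5243657 and HBB at chr11:5225464-5229395. Every member has 3 exons in its main transcript, which is between 488 bases (AHSP) and 798 bases (HBZ) long. Some spans include long alternative transcripts, so that the pseudogene HBBP1, at chr11:5242120-5243537, falls inside the annotated span of HBD.

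Paralogous members share much of their sequence, and this limits what a read can tell. The coding sequences of HBA1 and HBA2 were identical over all 426 bases, and only 19.3% of the 75-base windows of HBA1 and 19.1% of those of HBA2 were found in no other transcript. HBB and HBD differed at 31 coding bases (93.0% identity), and all of their 75-base windows were distinct. HBG1 and HBG2 differed at 2 of 441 coding bases, C227T and C410G, counted from the first base of the start codon with the base of HBG1 first. The stretches around these bases, with the differing base in capitals, are shown because they are the coding positions at which a fetal globin read can be assigned to 1 of the genes:
HBG1, coding bases 207 to 247: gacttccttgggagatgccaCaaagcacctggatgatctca
HBG2, coding bases 207 to 247: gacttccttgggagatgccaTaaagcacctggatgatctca
HBG1, coding bases 390 to 430: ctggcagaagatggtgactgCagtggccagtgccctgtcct
HBG2, coding bases 390 to 430: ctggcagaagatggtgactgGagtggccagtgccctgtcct

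Of the windows of 75 bases, 39.0% were distinct in HBG1, 38.9% in HBG2 and 60.9% in HBZ, which shared the rest with HBM and the pseudogene HBZP1. HBM, HBQ1 and AHSP shared none. For windows of 100 bases the shares were 20.3% for HBA1, 20.1% for HBA2, 46.1% for HBG1, 46.0% for HBG2 and 63.1% for HBZ. How reads that fit several genes were counted is not given in the sources used here, so the levels of HBA1, HBA2, HBG1, HBG2 and HBZ and their split within a pair are uncertain, while a comparison of the same gene between libraries rests on the same windows.

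Promoter sequences were matched for 2 of the 10 members, HBD and HBM (RefSeq, GRCh38.p14). They are shown because no promoter of another member was available. These members also had the steepest rise from D0 to D6 in the BAZ1B WT cells. Each is given for the 250 bases before the start of transcription, 5′ to 3′ on the gene's strand, with capitals on the letters of the GATA motif GATAA or its reverse complement TTATC, of the CACCC box or its reverse complement GGGTG, of the CCAAT box, and of the TATA-like strings TATAA and also ATAAA:
HBD, chr11:5234484-5234733, minus strand: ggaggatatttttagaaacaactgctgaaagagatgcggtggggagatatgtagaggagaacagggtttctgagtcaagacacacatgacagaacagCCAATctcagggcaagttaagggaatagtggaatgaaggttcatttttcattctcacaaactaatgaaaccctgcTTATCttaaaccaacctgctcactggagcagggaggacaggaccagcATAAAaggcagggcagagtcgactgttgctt
HBM, chr16:165728-165977, plus strand: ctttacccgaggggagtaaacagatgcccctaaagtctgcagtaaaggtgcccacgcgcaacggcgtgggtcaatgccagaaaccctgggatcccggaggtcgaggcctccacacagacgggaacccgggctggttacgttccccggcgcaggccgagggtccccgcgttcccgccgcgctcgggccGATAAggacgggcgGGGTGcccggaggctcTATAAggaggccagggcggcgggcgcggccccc

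The HBD window held CCAAT beginning 153 bases, TTATC 78 bases and ATAAA 31 bases before the start. The HBM window held GATAA at 63 bases, GGGTG at 49 bases and TATAA at 33 bases before it. Short letter strings of this kind are common: on either strand, GATAA was found in 20.4%, CACCC in 54.7%, CCAAT in 32.0%, TATAA in 18.9% and ATAAA in 32.7% of 35116 promoters cut to the same length. These are matches of letters only.

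Total counts per library were between 11910141 and 21013004 in the H2A.X experiment and between 33199408 and 41273244 in the BAZ1B experiment. In the H2A.X experiment the KO libraries differed from the WT libraries along transcript length: the log2 fold change of KO against WT rose with the length of the transcript across genes (Spearman's rho 0.544 at D0 and 0.598 at D6, 11717 genes of 1 experiment, which are not independent replicates), and the median over 476 transcripts below 700 bases was -0.81 at D0 and -1.16 at D6. The values in the BAZ1B experiment were -0.0249 and 0.0513. All but 1 of the members lie below that length (HBZ is the exception), so the H2A.X comparisons of genotypes are also given after a correction for length and GC content. The word Redo stands in the column names of 5 of the 6 H2A.X KO libraries and of no WT library, so this mark and the genotype cannot be told apart. Raw H2AFX reads numbered 394, 917 and 924 in the KO libraries at D0 and 335, 1105 and 828 at D6, against 1336 to 1646 in the WT libraries. After normalization the log2 fold change of H2AFX in KO against WT was -1.50 ± 0.46 at D0 and -1.52 ± 0.46 at D6 (SE). BAZ1B reads remained in the BAZ1B KO libraries, with a log2 fold change of -0.40 ± 0.07 at D0 and -0.38 ± 0.07 at D6 (SE); reads from the exons outside the deletion are still counted, so this gene does not check the label. The summed erythroid markers lay between 13943 and 61050 CPM (counts scaled to the library total) in all libraries, whereas lymphoid markers summed to at most 0.495 and fibroblast and endothelial markers to at most 0.315.

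HBB, the adult beta globin, was the most abundant member in each of the 8 groups. In RPKM, reads per kilobase of main transcript scaled to the library total, its level at D0 was 27206 ± 8329 (SD, n = 2) in the H2A.X WT and 11600 ± 1235 (SD, n = 3) in the H2A.X KO libraries, and 3267 ± 583 and 4773 ± 443 (SD, n = 3 each) in the BAZ1B WT and KO libraries. At D6 it was 53847 ± 21820 and 46605 ± 15046 in the H2A.X WT and KO libraries, and 29216 ± 2318 and 23853 ± 1581 in the BAZ1B WT and KO libraries. Per length, HBB was the highest of all genes in every H2A.X library and in every D6 library of the BAZ1B experiment, and it ranked between 3 and 15 in the BAZ1B libraries at D0. The measured HBB levels at D0 thus differed between the experiments. In the H2A.X WT libraries the level at D0 was similar to that of the BAZ1B libraries at D6. These were separate tables, and no test was made across them. Differences of the cells and of library preparation cannot be told apart here.

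Below HBB, the order of levels per length changed between the days. At D0 AHSP came next in all 4 groups, at 610.3 ± 33.3 RPKM (SD, n = 3) in the BAZ1B WT libraries, ahead of HBA1 at 363 ± 34.4 and HBA2 at 201 ± 28.2, and the libraries of these neighbours did not overlap. In the H2A.X WT libraries at D0, AHSP, HBA2 and HBA1 overlapped and could not be ordered. At D6 the alpha globins stood above AHSP in the BAZ1B WT cells, with HBA1 at 4646 ± 437, HBA2 at 2820 ± 437, AHSP at 2143 ± 117 and HBD at 2098 ± 443, of which the last pair overlapped. HBM reached 472 ± 106, HBG2 49.1 ± 6.94, HBQ1 48.1 ± 4.98 and HBZ 17.3 ± 7.52, and HBG2 overlapped with HBQ1. HBG1 was the lowest member in each group, at 1.43 ± 0.193 in the same libraries.

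**Figure D1:**
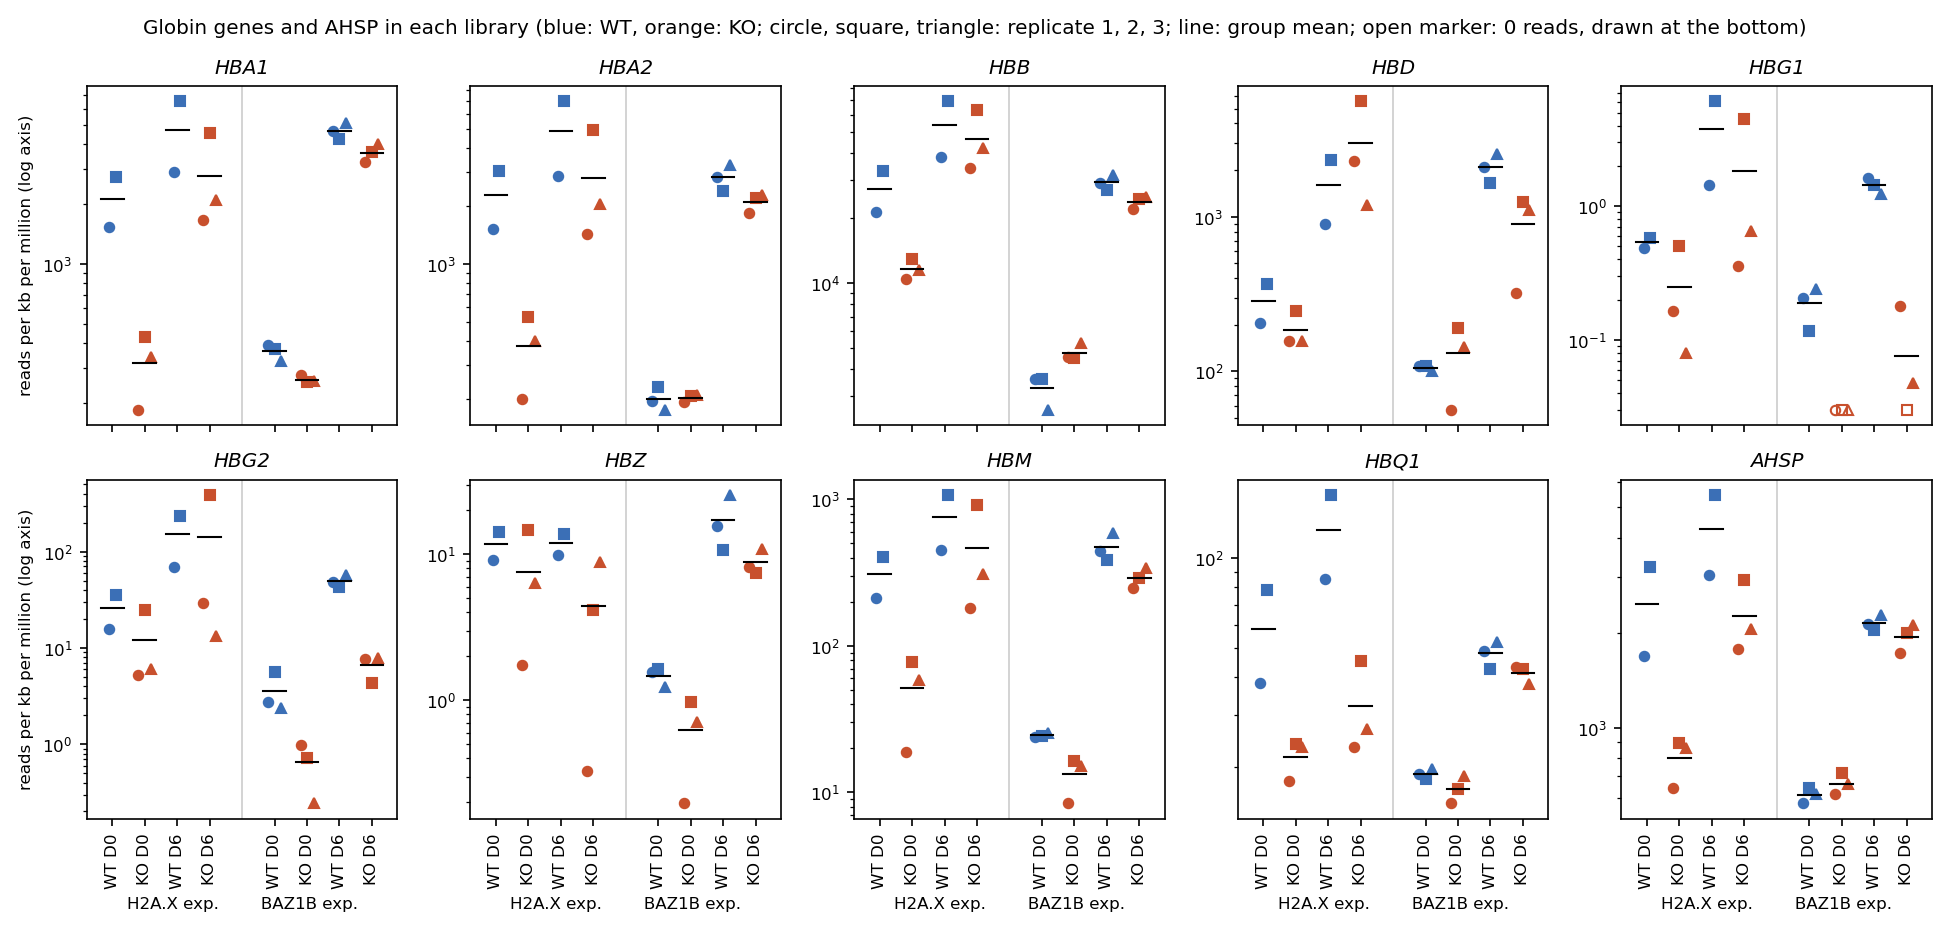
Level of each member in each library on a log axis of RPKM, with 1 panel for each gene, blue for WT, orange for KO, a marker shape for each replicate and a line at the group mean. Open markers at the bottom stand for 0 reads. HBB lies on top in each group, from 3267 on average in BAZ1B WT cells at D0 to 53847 in H2A.X WT cells at D6, and HBG1 lies at the bottom.

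Maturation was accompanied by higher levels of the members in 3 of the 4 genotypes by the test. In the BAZ1B WT cells all 10 members rose from D0 to D6 (edgeR quasi-likelihood test, Benjamini-Hochberg adjusted p under 0.05), where 68.9% of the 13879 tested genes were called and 33.5% rose. In the BAZ1B KO cells all 10 were called higher as well, where 67.7% of genes were called and 33.2% rose. The members' median log2 fold change was 3.61 in WT and 3.34 in KO cells, against -0.02 and -0.02 over all genes. Since these are bulk samples, fewer mature cells and less globin RNA per cell cannot be told apart here or in any comparison that follows.

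HBD, the minor adult beta-like gene, had the steepest rise in BAZ1B WT cells. Its normalized counts were 2525, 2535 and 2330 at D0 and 48918, 38546 and 59167 at D6, a log2 fold change of 4.31 ± 0.50 (SE, edgeR adjusted p = 5.13e-06). HBM counts went from 453, 455 and 482 to 8353, 7228 and 11106, a log2 fold change of 4.26 ± 0.20 (SE, edgeR adjusted p = 1.41e-09). In both genes each D6 library lay above each D0 library by a wide margin. HBQ1, the theta globin gene, rose least: its counts were 376, 362 and 391 at D0 and 972, 849 and 1044 at D6, a log2 fold change of 1.34 ± 0.10 (SE, edgeR adjusted p = 5.27e-08). Among the main adult genes, the log2 fold change was 3.68 ± 0.10 (SE) for HBA1, 3.81 ± 0.13 for HBA2 and 3.16 ± 0.12 for HBB, and that of the chaperone gene AHSP was 1.81 ± 0.08. The remaining members, HBG1, HBG2 and HBZ, had log2 fold changes of 2.89 ± 0.46, 3.76 ± 0.33 and 3.55 ± 0.37.

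In the BAZ1B KO cells the log2 fold changes from D0 to D6 were between 1.29 (HBQ1) and 4.46 (HBM), leaving out HBG1. HBG1 had 0 reads in all 3 KO libraries at D0 and 4, 0 and 1 reads at D6, so that its level at D6 was at least 1.78-fold higher, against a floor of 3 reads over the group. The members' median with HBG1 at this bound was 3.04. The call of HBG1 in KO cells was lost without KO D0 replicate 1, 2 or 3, WT D6 replicate 2 or KO D6 replicate 1, with adjusted p-values from 0.0522 to 0.208.

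In the H2A.X KO cells, 7 of the 10 members rose from D0 to D6, where 30.9% of the 13236 tested genes were called and 14.8% rose. These were HBA1, HBA2, HBB, HBD, HBG2, HBM and AHSP, and the members' median log2 fold change was 2.87 against 0.02 over all genes. HBD counts were 1704, 2659 and 1713 at D0 and 24796, 60514 and 12941 at D6, a log2 fold change of 4.02 ± 0.59 (SE, edgeR adjusted p = 0.001). All 3 KO subclones were higher in HBD at D6, and they differed among themselves more at D6 than at D0. HBA1 counts were 1874, 4336 and 3440 at D0 and 16737, 45737 and 21239 at D6, a log2 fold change of 3.12 ± 0.49 (SE, edgeR adjusted p = 0.00141). HBG2 counts were 54.1, 252 and 62.5 at D0 and 302, 3981 and 135 at D6, a log2 fold change of 3.58 ± 1.19 (SE, edgeR adjusted p = 0.0436). KO subclone 2 alone carried most of the fetal globin at D6. The call of HBG2 was lost without WT D0 replicate 1 or 2, KO D0 replicate 1 or 3, or WT D6 replicate 1 or 2, at adjusted p-values from 0.0546 to 0.132, and without KO D6 replicate 2 its log2 fold change was 0.84 (edgeR adjusted p = 0.466). With the subclone as a block, 9 of the 10 members were called higher, HBG1 and HBQ1 in addition (38.5% of all genes called, 18.2% higher).

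In the H2A.X WT cells, 0 of the 10 members passed the test from D0 to D6 (edgeR), 4 had an unadjusted p under 0.05, and DESeq2 called 1, HBD (8.06% of all genes). Only 2.0% of all genes were called in this comparison of 2 subclones with themselves. All 10 log2 fold changes were above 0, with a median of 1.13 against 0.01 over all genes, and in 7 members each D6 library lay above each D0 library, as in 25.2% of all genes. HBD counts were 2221 and 3971 at D0 and 9751 and 25162 at D6, a log2 fold change of 2.495 ± 0.68 (SE, edgeR adjusted p = 0.0844). HBB counts were 235170 and 365110 at D0 and 423830 and 764263 at D6, a log2 fold change of 0.98 ± 0.36 (SE, edgeR adjusted p = 0.16). The WT subclones differed from each other at both days, with replicate 2 the higher in both genes. With the subclone as a block, which removes this difference, 8 members were called higher (8.51% of all genes called, 4.40% higher), among them HBB at 0.96 ± 0.14 (SE, edgeR adjusted p = 0.0112) and HBD at 2.40 ± 0.33 (SE, edgeR adjusted p = 0.0083), and HBG1 and HBZ were not. When the correction for length and GC content was added to the block, HBD alone was called (7.06% of all genes). Without KO D6 replicate 2 or 3, HBD alone was called, at edgeR adjusted p-values of 0.0352 and 0.0401.

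Loss of H2A.X was accompanied by lower alpha globin, beta globin and chaperone RNA before maturation. At D0, 6 of the 10 members were lower in KO than in WT and 0 were higher, where 35.1% of all genes were called and 16.7% were lower and 18.4% higher. The 6 were HBA1, HBA2, HBB, HBM, HBQ1 and AHSP, and each of their KO libraries lay below each WT library, as in 34.1% of all genes. The median log2 fold change of the members was -1.32, against 0.01 over all genes and -0.81 over transcripts below 700 bases. With the correction for length and GC content the members' median was -0.50.

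HBA1 had normalized counts of 15433 and 27522 in WT and 1874, 4336 and 3440 in KO libraries at D0, with a log2 fold change of -2.74 ± 0.51 (SE, edgeR adjusted p = 0.00713). HBA2 counts were 15382 and 30816 in WT and 2029, 5366 and 4062 in KO libraries, a log2 fold change of -2.60 ± 0.59 (SE, edgeR adjusted p = 0.0111). The alpha globins had the largest log2 fold changes of the members, and KO subclone 1 was the lowest in both. HBB counts were 235170 and 365110 in WT and 114937, 142113 and 126868 in KO libraries, a log2 fold change of -1.23 ± 0.32 (SE, edgeR adjusted p = 0.0171). AHSP counts were 14431 and 27758 in WT and 5502, 7641 and 7377 in KO libraries, a log2 fold change of -1.62 ± 0.33 (SE, edgeR adjusted p = 0.0088). The adult beta globin and the chaperone had smaller log2 fold changes than the alpha globins, each without overlap of the genotypes. The alpha-like genes HBM and HBQ1 fell with log2 fold changes of -2.58 ± 0.71 (SE, edgeR adjusted p = 0.0207) and -1.42 ± 0.38 (SE, edgeR adjusted p = 0.0186). HBD, HBG1, HBG2 and HBZ did not pass, with log2 fold changes of -0.61 ± 0.58, -1.08 ± 1.31, -1.10 ± 1.23 and -0.63 ± 0.94 (SE).

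After the correction for length and GC content, 3 members remained called at D0, where 21.2% of all genes were called and 11.7% were lower: HBA1 at -1.86 ± 0.45 (SE, edgeR adjusted p = 0.0206), HBA2 at -1.71 ± 0.53 (SE, edgeR adjusted p = 0.0456) and AHSP at -0.92 ± 0.25 (SE, edgeR adjusted p = 0.0299). HBB had a log2 fold change of -0.54 ± 0.25 (SE, edgeR adjusted p = 0.154) there, HBM -1.64 and HBQ1 -0.35. The number of members called depended on single libraries: without WT D0 replicate 2 no member was called (log2 fold changes of HBA1 and HBB -2.26 and -0.88) and only 0.551% of all genes were, without WT D0 replicate 1 there were 6, and without KO D0 replicate 1 there were 3. Without KO D0 replicate 3, HBB and HBM were no longer called, at adjusted p-values of 0.0524 and 0.0533. The share of all genes called is not given for the fits without WT D0 replicate 1 or KO D0 replicate 1. Mast cell and eosinophil markers moved in the same comparison: 3 of the 4 tested were higher in KO, and the list of 7 summed to 36.0 to 38.5 CPM in WT and 115 to 225 in KO libraries. The part of such cells in the lower globin levels was not tested.

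At D6, 2 of the 10 members were lower in H2A.X KO cells and 0 were higher, where 43.1% of all genes were called and 20.9% were lower and 22.2% higher. HBQ1 counts were 789 and 1512 in WT and 218, 422 and 250 in KO libraries, a log2 fold change of -1.95 ± 0.38 (SE, edgeR adjusted p = 0.00474). AHSP counts were 26203 and 46833 in WT and 15205, 25186 and 17628 in KO libraries, a log2 fold change of -0.92 ± 0.33 (SE, edgeR adjusted p = 0.0469). Neither gene overlapped between the genotypes. HBB counts were 423830 and 764263 in WT and 377593, 698909 and 465951 in KO libraries, with a log2 fold change of -0.21 ± 0.32 (SE, edgeR adjusted p = 0.62), and the genotypes overlapped. HBA1, HBA2, HBM and HBZ had log2 fold changes of -0.78 ± 0.50, -0.80 ± 0.58, -0.70 ± 0.69 and -1.41 ± 0.95 (SE), and HBD, HBG1 and HBG2 had 0.91 ± 0.60, -0.99 ± 0.96 and -0.08 ± 1.18.

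The D6 values turned with the correction for length and GC content: HBB was then called higher in KO, at 0.87 ± 0.26 (SE, edgeR adjusted p = 0.0419), and so was HBD, at 2.05 ± 0.61 (SE, edgeR adjusted p = 0.0396), where 2918 of 13236 genes (22%) were called and 10.3% were higher. HBQ1 and AHSP were then not called, at -0.06 and 0.28. The members' median went from -0.79 to 0.81, and the direction of globin RNA in H2A.X KO cells at D6 thus depended on this correction. With the replicate number as a block and no such correction, 6 members were lower, HBA1, HBA2, HBZ, HBM, HBQ1 and AHSP, and HBD was higher. That block ties KO and WT subclones of 1 number, which nothing in the labels pairs. Their deviations correlated at 0.102 to 0.233, so these calls rest on an arbitrary pairing. HBD was at 1.11 ± 0.30 (SE, edgeR adjusted p = 0.0134), where 48.8% of all genes were called, 23.9% lower and 24.9% higher. Without WT D6 replicate 2 no member was called, and AHSP alone lost its call without KO D0 replicate 1, 2 or 3 or KO D6 replicate 1 or 3. Without KO D6 replicate 2, and without both libraries of that subclone, HBG1 and HBG2 were called lower in addition, at -2.84 for HBG2 in the latter case (edgeR adjusted p = 0.0241). The difference between the KO effect at D6 and that at D0 passed for 0 of the 10 members (edgeR and DESeq2; 1 had an unadjusted p under 0.05), where 1.34% of all genes were called. With the subclone as a block it passed for 4 (4.17% of all genes): HBA1 at 1.97 ± 0.24 (SE, edgeR adjusted p = 0.0057), HBA2 at 1.76 ± 0.25 (SE, edgeR adjusted p = 0.00963), HBB at 1.01 ± 0.19 (SE, edgeR adjusted p = 0.023) and HBM at 1.83 ± 0.32 (SE, edgeR adjusted p = 0.0187), where a value above 0 means a smaller deficit at D6. Mast cell and eosinophil markers went the other way than at D0, with 1 of the 4 tested lower in KO, TPSAB1 at -4.71 (edgeR adjusted p = 0.00217), and the list of 7 summed to 35.3 to 76.2 CPM in WT and 0.999 to 5.12 in KO libraries. Their part in the D6 globin values was not tested.

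Loss of BAZ1B was accompanied by much lower fetal globin RNA at both days. Smaller changes were called for HBA1 at both days, for HBB at D0 and for HBA2 at D6. At D0, 2 of the 10 members were lower in KO than in WT and 1 was higher, where 3.88% of all genes were called, 2.64% lower and 1.25% higher. HBG2 counts were 60.3, 125 and 52.9 in WT and 21.7, 16 and 5.35 in KO libraries, a log2 fold change of -2.44 ± 0.45 (SE, edgeR adjusted p = 0.00785). HBA1 counts were 8506, 8068 and 7054 in WT and 5983, 5508 and 5584 in KO libraries, a log2 fold change of -0.47 ± 0.09 (SE, edgeR adjusted p = 0.00915). In both genes each KO library lay below each WT library, and the replicates of HBA1 were close together. HBB moved the other way: its counts were 85138, 84905 and 61201 in WT and 107460, 105761 and 124674 in KO libraries, a log2 fold change of 0.55 ± 0.11 (SE, edgeR adjusted p = 0.0155). HBG1 was at 5, 3 and 6 reads in the WT libraries and 0 reads in each KO library, which puts its KO level at least 4.15-fold lower, against a floor of 3 reads over the group. Intervals and floors of this kind cover counting error only.

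Of the other members at D0, HBM counts were 453, 455 and 482 in WT and 159, 311 and 285 in KO libraries, with a log2 fold change of -0.88 ± 0.23 (SE, edgeR adjusted p = 0.0576), and the genotypes did not overlap. HBZ had a log2 fold change of -1.22 ± 0.46 (SE, edgeR adjusted p = 0.199) on few reads. HBA2, HBD, HBQ1 and AHSP had 0.01 ± 0.12, 0.30 ± 0.45, -0.17 ± 0.10 and 0.12 ± 0.08 (SE). The members' median was -0.32, also with HBG1 at its bound, against 0.003 over all genes. DESeq2 called 6 members, adding HBG1, HBM and HBZ, and 5.30% of all genes. The calls of HBA1 and HBB were lost without KO D0 replicate 3, at adjusted p-values of 0.052 and 0.0939, and that of HBA1 without WT D0 replicate 1, at 0.0539. With only the D0 libraries in the fit, HBB was not called (edgeR adjusted p = 0.0688). HBM passed without KO D0 replicate 2, WT D6 replicate 2 or 3, or KO D6 replicate 1, and HBG1 without KO D6 replicate 1 or 2.

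At D6, 5 of the 10 members were lower in BAZ1B KO cells and 0 were higher, where 12.8% of all genes were called and 5.97% were lower and 6.87% higher. HBG2 counts were 1052, 946 and 1247 in WT and 167, 94 and 173 in KO libraries, a log2 fold change of -2.90 ± 0.31 (SE, edgeR adjusted p = 8.22e-05). Over the summed reads of the groups, 3017 in WT and 415 in KO, the WT to KO ratio of HBG2 was 7.41 (95% interval 6.69 to 8.23). HBG1 had 32, 28 and 27 reads in WT and 4, 0 and 1 in KO libraries, a log2 fold change of -4.07 ± 0.55 (SE, edgeR adjusted p = 0.000863) and a ratio of 17.7 (95% interval 7.32 to 56.0) over 87 and 5 reads. Both fetal genes were far lower in every KO library than in any WT library. HBA1 counts were 100404, 91409 and 110346 in WT and 70267, 78811 and 86306 in KO libraries, a log2 fold change of -0.36 ± 0.09 (SE, edgeR adjusted p = 0.0154). HBA2 counts were 61119, 51531 and 70440 in WT and 39579, 47588 and 49273 in KO libraries, a log2 fold change of -0.42 ± 0.12 (SE, edgeR adjusted p = 0.0313). HBM fell with a log2 fold change of -0.69 ± 0.17 (SE, edgeR adjusted p = 0.0183). The alpha-side decreases were thus small beside those of the fetal genes.

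HBD counts at D6 were 48918, 38546 and 59167 in BAZ1B WT and 7532, 28811 and 25875 in BAZ1B KO libraries, with a log2 fold change of -1.24 ± 0.44 (SE, edgeR adjusted p = 0.0859). The KO subclones were spread widely in HBD but all lay below the WT libraries. HBZ had -0.97 ± 0.32 (SE, edgeR adjusted p = 0.0683), HBB -0.29 ± 0.11 (SE, edgeR adjusted p = 0.111), and HBQ1 and AHSP -0.22 ± 0.09 and -0.14 ± 0.08 (SE). In 7 members each KO library lay below each WT library, as in 15.2% of all genes, and the median of the members was -0.56 against -0.004 over all genes. The calls of HBA1, HBA2 and HBM were lost without WT D6 replicate 3, at adjusted p-values of 0.077, 0.142 and 0.0943. Those of HBA2 and HBM were lost without KO D6 replicate 1, at 0.0955 and 0.0545, and that of HBA2 without WT D6 replicate 1, at 0.0827. HBB passed without WT D0 replicate 3, HBD without KO D0 replicate 1, and HBZ without KO D0 replicate 1 or 2 or WT D6 replicate 2.

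The KO effect at D6 differed from that at D0 in 1 member of the BAZ1B experiment, HBB, where 2.47% of all genes were called. HBB was higher in KO at D0 and not at D6, and the difference of the effects on the log2 scale was -0.84 ± 0.16 (SE, edgeR adjusted p = 0.0181). It missed the threshold of the edgeR fit without KO D0 replicate 3 (edgeR adjusted p = 0.0526) and without WT D6 replicate 3 (edgeR adjusted p = 0.0531).

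**Figure D2:**
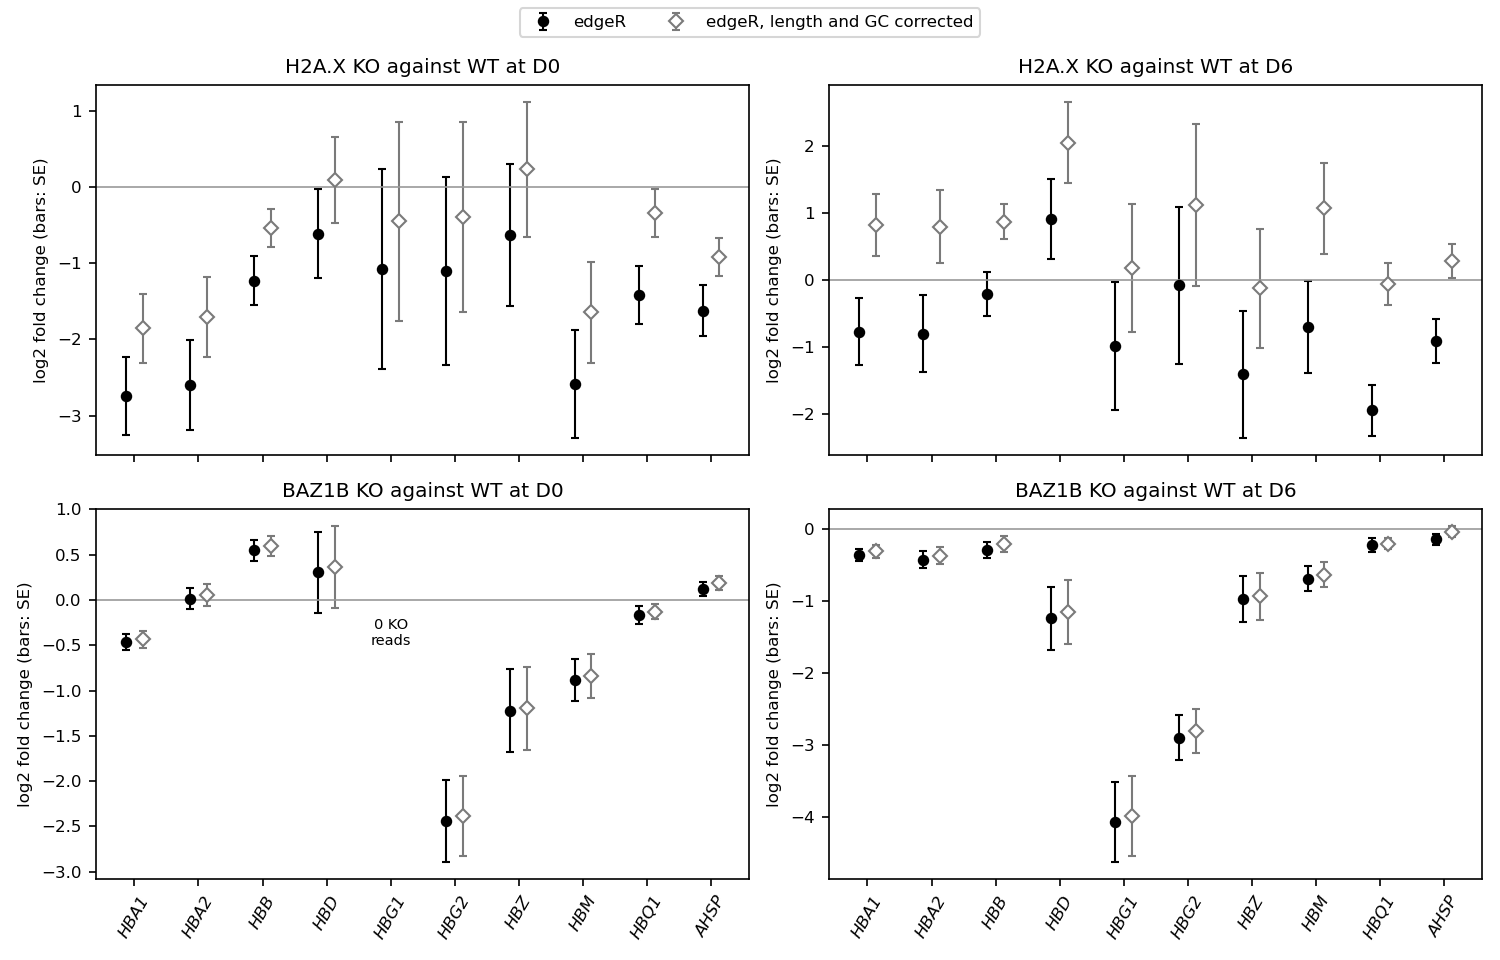
Log2 fold change of KO against WT for each member, with 1 panel for each experiment and day, filled points for the edgeR fit, open points for the fit with the correction for length and GC content, and bars for the SE. The 10 filled H2A.X points lie below 0 at D0, with HBA1 at -2.74, and shift upward with the correction at D6, and HBG2, and at D6 HBG1 too, stand far below the other members in BAZ1B KO cells, HBG1 being left out at D0 where it had 0 KO reads.

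The pseudogene HBBP1 lies between the fetal and adult genes of the beta cluster and gave the largest differences of that cluster in the BAZ1B experiment. It is not a member, and its reads are given because of its position. Its counts are given as raw reads, unlike the normalized counts of the members. In the BAZ1B experiment they were 9517, 9485 and 9016 in WT and 9, 21 and 15 in KO libraries at D0, with a log2 fold change of -9.10 ± 0.14 (SE, edgeR adjusted p = 5.08e-13). By D6 the WT libraries held 17867, 15678 and 20849 and the KO libraries 31, 15 and 23 reads of it, a log2 fold change of -9.64 ± 0.13 (SE, edgeR adjusted p = 1.27e-13). Within this experiment the RNA was thus abundant in all WT and near 0 in all KO libraries. The WT level differed between the experiments. The list of 8 other globins and locus RNAs, which includes HBBP1, summed to 227 to 242 CPM in BAZ1B WT libraries at D0. In H2A.X WT libraries at D0 it summed to 5.13 to 7.97 CPM, and no test was made across the experiments. For H2A.X, raw HBBP1 reads numbered 83 and 124 in WT and 388, 4975 and 393 in KO libraries at D0, and 439 and 283 in WT and 151, 8702 and 229 in KO libraries at D6. KO subclone 2 stood apart there at both days, and it was also the subclone with the most HBG2 reads, 64, 294 and 76 in the 3 KO libraries at D0 and 329, 4189 and 140 at D6. HBBP1 overlaps the annotated span of HBD on the same strand. The log2 fold change of HBD in KO against WT was 0.30 at D0 and -1.24 at D6 in the BAZ1B experiment. In the H2A.X experiment it was -0.61 at D0 and 0.91 at D6. HBE1, the embryonic beta-like gene, had 0 reads in every library.

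**Figure D3:**
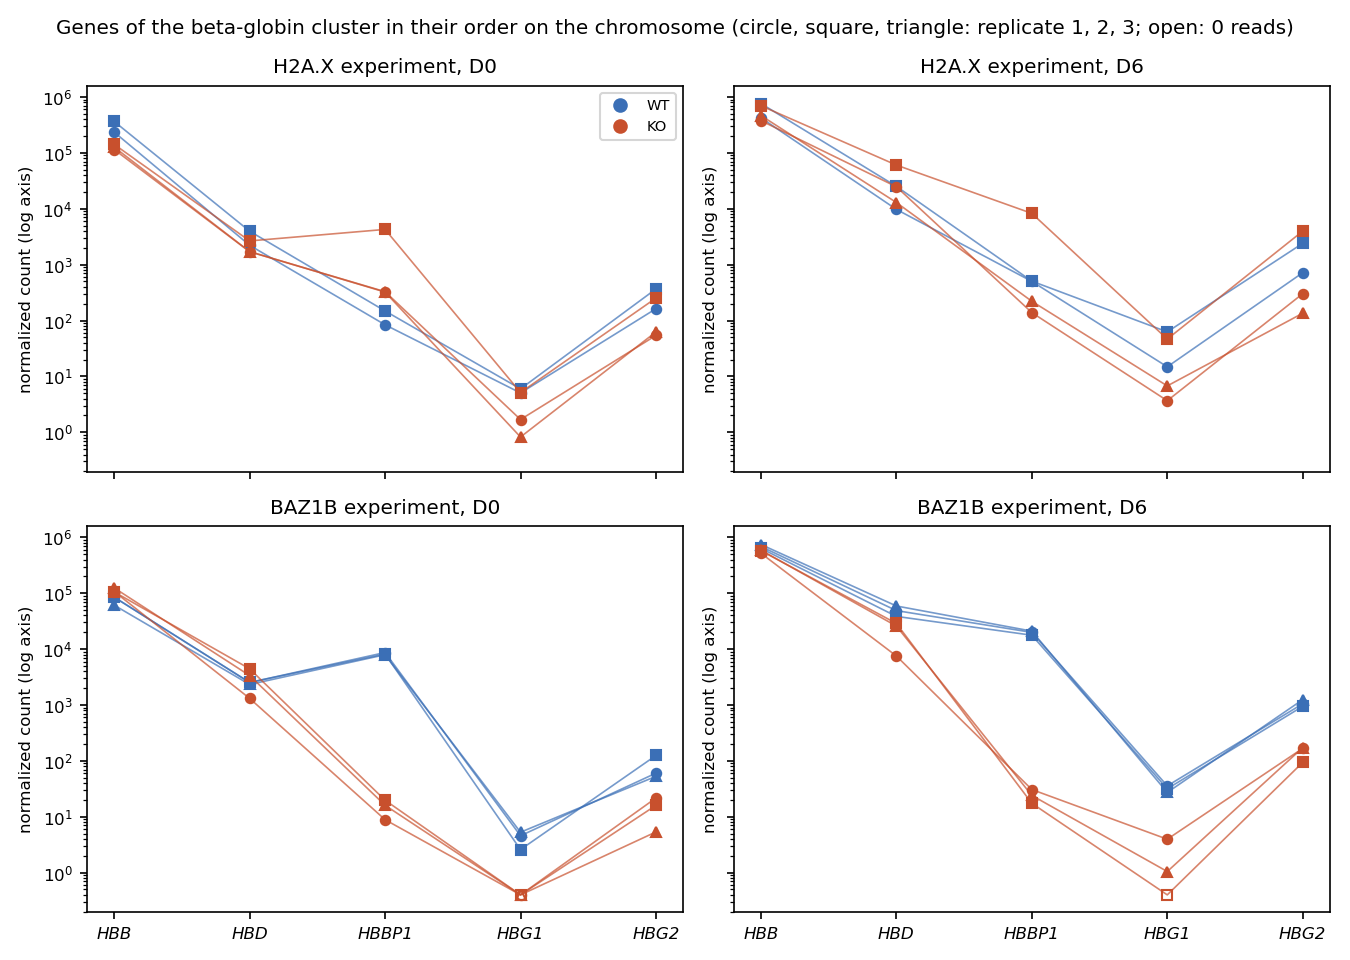
Normalized counts of HBBP1 and of the beta-side members in each library on a log axis, in their order on the chromosome, with 1 panel for each experiment and day, blue for WT, orange for KO, and a marker shape for each replicate, open for 0 reads. HBBP1 separates the BAZ1B WT libraries (9016 reads or more before normalization) from the KO libraries (31 or fewer), and H2A.X KO subclone 2 lies above the other H2A.X libraries in HBBP1.

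The balance of alpha to beta globin was measured in each library as the log2 ratio of HBA1 and HBA2 reads to HBB, HBD, HBG1 and HBG2 reads. Alpha reads were few relative to beta reads, at -2.69 ± 0.13 (SD, n = 3) in BAZ1B WT libraries at D0 and -2.20 ± 0.04 (SD, n = 3) at D6. Since only a small share of the alpha windows is distinct, the same ratio per distinct 75-base window was much nearer to 0, at -0.18 ± 0.13 and 0.32 ± 0.04 (SD), and the level of the balance therefore depends on how shared reads were counted. As a ratio of reads, the balance rose from D0 to D6 by 0.69 on average over the 4 genotypes (exact permutation of days within genotypes, which takes the D0 and D6 libraries of a subclone as independent, here and for the other measures, two-sided p = 0.000208, 0.000486 adjusted over 7 measures), and was higher at D6 in 11 of 11 subclones. With the correction for length and GC content it rose by 0.72 and was higher at D6 in 10 of 11, and the mean of the H2A.X WT libraries went from -2.94 to -2.98.

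Between genotypes, the exact permutation test cannot go below p = 0.2 for 3 KO against 2 WT libraries or below p = 0.1 for 3 against 3, and 28 such two-sided tests were made. In the H2A.X experiment the balance at D0 was -2.95 and -2.66 in WT and -4.90, -3.90 and -4.10 in KO libraries (exact permutation p = 0.2, 0.35 adjusted). At D6 it was -2.90 and -2.54 in WT and -3.69, -2.997 and -3.51 in KO libraries (exact permutation p = 0.2, 0.35 adjusted). All KO libraries lay below the WT libraries at both days, that is, toward less alpha globin, with a mean difference of -1.50 at D0 and -0.68 at D6. With the correction for length and GC content the mean difference was -1.30 at D0, still without overlap, and -0.21 at D6, where the genotypes overlapped. In the BAZ1B experiment the balance at D0 was -2.78, -2.74 and -2.55 in WT and -3.42, -3.46 and -3.66 in KO libraries (exact permutation p = 0.1, 0.28 adjusted). At D6 it was -2.19, -2.24 and -2.16 in WT and -2.27, -2.26 and -2.18 in KO libraries (exact permutation p = 0.3, 0.494 adjusted). The BAZ1B genotypes were apart at D0 and overlapped at D6, at which all of them had risen. Per distinct window, the BAZ1B KO libraries were at -0.996 ± 0.13 at D0 and 0.28 ± 0.05 at D6, and the H2A.X libraries at -0.29 ± 0.20 (WT) and -1.78 ± 0.53 (KO) at D0 and at -0.20 ± 0.26 and -0.88 ± 0.35 at D6 (SD).

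Fetal globin was a trace of the beta-side RNA in all libraries. The share of HBG1 and HBG2 in all beta-side reads at D0 was 0.074, 0.146 and 0.0915% in BAZ1B WT and 0.0199, 0.0145 and 0.00418% in BAZ1B KO libraries (exact permutation p = 0.1, 0.28 adjusted). At D6 it was 0.148, 0.145 and 0.158% in WT and 0.0325, 0.0155 and 0.0282% in KO libraries (exact permutation p = 0.1, 0.28 adjusted). Each KO library lay below each WT library at both days, with means of 0.104% ± 0.0374 (SD, n = 3) and 0.0129% ± 0.008 (SD, n = 3) at D0 and of 0.15% ± 0.00706 (SD, n = 3) and 0.0254% ± 0.00884 (SD, n = 3) at D6. The share in the H2A.X libraries at D0 was 0.0706 and 0.101% in WT and 0.0478, 0.178 and 0.0492% in KO libraries, and at D6 it was 0.169 and 0.312% and 0.0759, 0.528 and 0.0296%. These overlapped at both days (exact permutation p = 1, 1 adjusted at D0 and the same at D6), also with the correction for length and GC content, and KO subclone 2 was the highest of the KO libraries. H2A.X KO subclone 3 at D6, at 0.0296%, lay within the range of the BAZ1B KO libraries of that day, and subclones 1 and 2 lay above it. From D0 to D6 the share changed by 0.0832 percentage points on average (exact permutation p = 0.061, 0.0712 adjusted), with 9 of 11 subclones higher at D6; within subclones the difference was 0.0768 (exact sign-flip p = 0.0107), and without H2A.X KO D6 replicate 1 or 3, or BAZ1B WT D0 replicate 2, the p-value was 0.0373, 0.0159 or 0.0385.

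Within the beta-side pair of adult genes, the share of HBD in HBB and HBD reads rose from D0 to D6 by 2.51 percentage points on average (exact permutation p = 0.000542, 0.000948 adjusted) and was higher at D6 in 11 of 11 subclones. At D6 it was 6.65, 5.71 and 7.35% in BAZ1B WT and 1.43, 4.74 and 4.2% in BAZ1B KO libraries (exact permutation p = 0.1, 0.28 adjusted). For the H2A.X libraries it was 2.25 and 3.19% in WT and 6.16, 7.97 and 2.7% in KO libraries (exact permutation p = 0.4, 0.56 adjusted). At D6 the BAZ1B KO libraries lay below their WT libraries, whereas the H2A.X genotypes overlapped, as they did with the correction for length and GC content. At D0 the H2A.X share was 0.936 and 1.08% in WT and 1.46, 1.84 and 1.33% in KO libraries (exact permutation p = 0.2, 0.35 adjusted). These KO libraries lay above the WT libraries, also with the correction. The BAZ1B genotypes overlapped at D0 (exact permutation p = 0.7, 0.933 adjusted). The share of HBA2 in HBA1 and HBA2 reads at D0 was 33.2, 38.3 and 35.1% in BAZ1B WT and 41.1, 45 and 44.7% in BAZ1B KO libraries (exact permutation p = 0.1, 0.28 adjusted), and at D6 it was 37.6% ± 1.47 (SD, n = 3) and 36.7% ± 0.858 (SD, n = 3). It changed by -2.54 percentage points from D0 to D6 (exact permutation p = 0.0343, 0.0481 adjusted), was higher at D6 in 2 of 11 subclones, missed the threshold within subclones (exact sign-flip p = 0.0605), and no longer passed without any of 7 single libraries (H2A.X WT D0 2, KO D0 2, WT D6 1 and KO D6 1, and BAZ1B WT D0 2, WT D6 2 and KO D6 1), at p-values from 0.051 to 0.0763. HBG2 made up between 90.9% and 100% of the fetal reads in each library.

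AHSP fell relative to the alpha globin it binds as the cells matured. The log2 ratio of AHSP reads to HBA1 and HBA2 reads changed by -1.42 from D0 to D6 on average (exact permutation p = 4.17e-05, the smallest possible, 0.000146 adjusted, with the libraries of a subclone taken as independent) and was higher at D6 in 0 of 11 subclones. At D0 it was -1.09 and -1.07 in H2A.X WT and 0.50, -0.34 and -0.02 in H2A.X KO libraries (exact permutation p = 0.2, 0.35 adjusted), and at D6 the genotypes overlapped, with means of -1.35 ± 0.28 (SD, n = 2) and -1.41 ± 0.46 (SD, n = 3). With the correction for length and GC content the H2A.X KO minus WT difference was 0.92 at D0, without overlap, and -0.41 at D6, with overlap. In the BAZ1B experiment it was -0.27, -0.15 and 0.05 in WT and 0.15, 0.39 and 0.26 in KO libraries at D0 (exact permutation p = 0.1, 0.28 adjusted), and -2.05, -1.94 and -2.12 and -1.80, -1.79 and -1.81 at D6 (exact permutation p = 0.1, 0.28 adjusted). The KO libraries lay above the WT libraries in all of these but the H2A.X libraries at D6.

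The 9 globin genes together took 0.281, 0.285 and 0.215% of all reads in BAZ1B WT and 0.341, 0.338 and 0.391% in BAZ1B KO libraries at D0 (exact permutation p = 0.1, 0.28 adjusted). At D6 they took 2.28, 2.11 and 2.49% in WT and 1.64, 1.86 and 1.86% in KO libraries (exact permutation p = 0.1, 0.28 adjusted). The KO libraries were thus above WT at D0 and below WT at D6, without overlap at either day. The H2A.X share was 1.66 and 2.3% in WT and 0.775, 0.988 and 0.878% in KO libraries at D0 (exact permutation p = 0.2, 0.35 adjusted), and 2.7 and 4.41% and 2.43, 4.34 and 3.09% at D6, where they overlapped and where correction for length and GC content turned the difference. The share rose with day by 1.86 percentage points on average (exact permutation p = 4.17e-05, 0.000146 adjusted) and in 11 of 11 subclones.

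**Figure D4:**
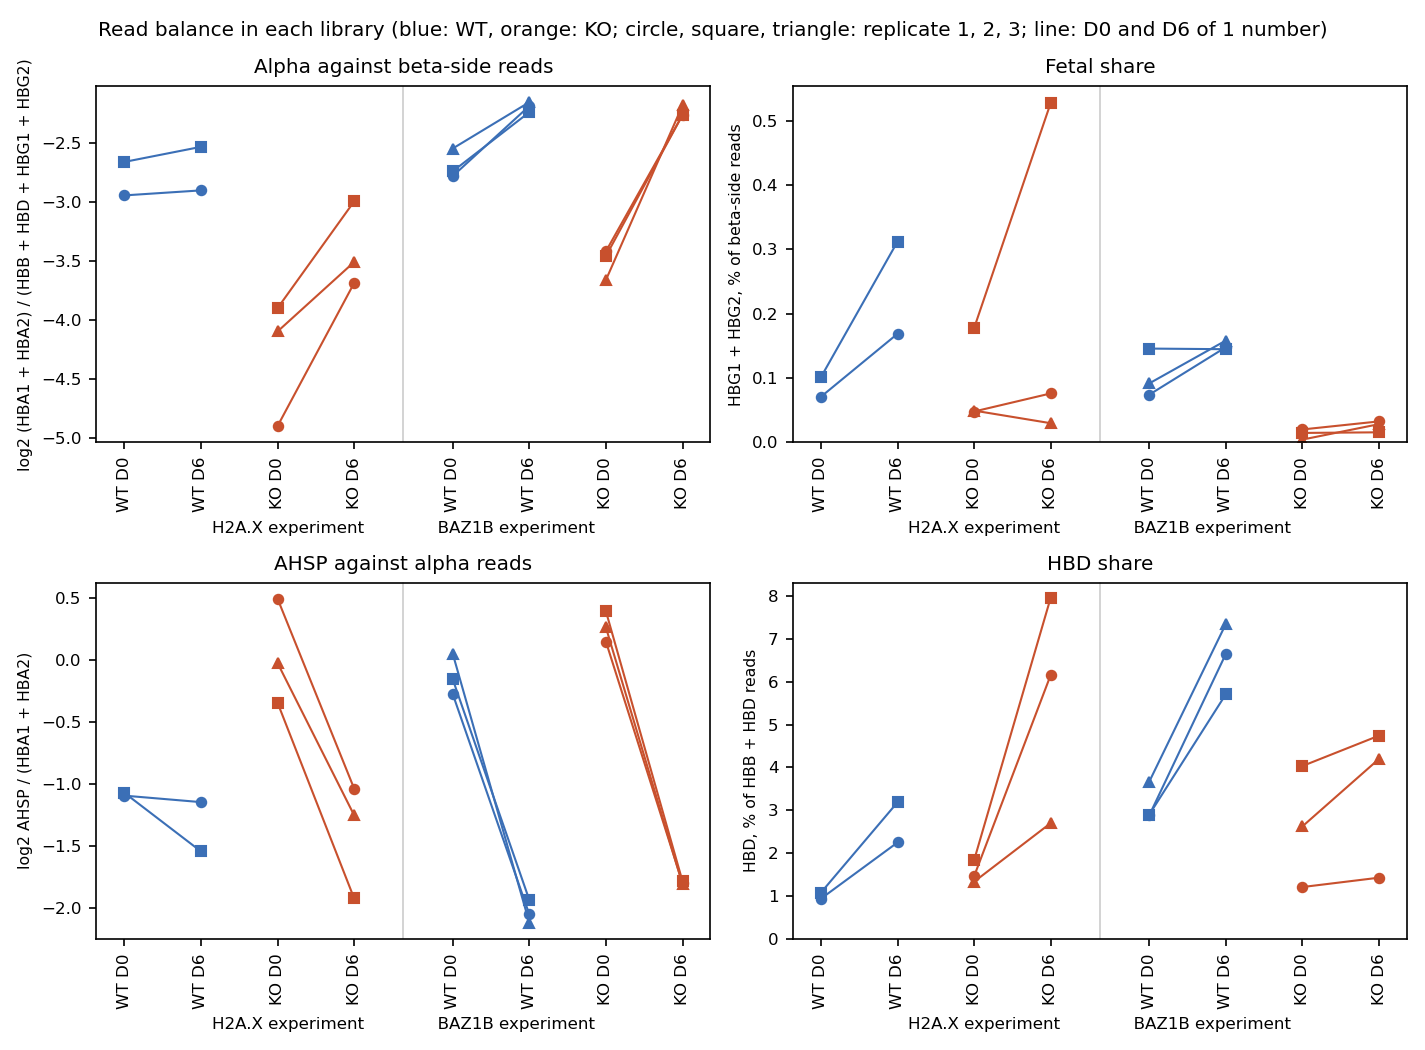
Alpha to beta balance (log2), fetal share of beta-side reads (percent), AHSP to alpha ratio (log2) and HBD share of HBB and HBD reads (percent) in each library, with lines joining D0 and D6 of a replicate number, blue for WT and orange for KO. The alpha to beta balance is higher at D6 in 11 of 11 subclones, the AHSP to alpha ratio is lower at D6 and the HBD share higher in each of them, and the fetal share of BAZ1B KO cells lies under that of their WT cells.

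Genes that act with the globins were described as lists, beside the medians over all genes given with the members. Of the 8 heme synthesis enzymes, which make the prosthetic group of hemoglobin, 7 were lower and 0 higher in H2A.X KO cells at D0 (median log2 fold change -1.23), with UROD lowest at -1.61 ± 0.21 (SE). Over all genes, 16.7% were lower and 18.4% higher there. At D6, 1 was higher and 1 lower (median -0.09), where 22.2% of all genes were higher and 20.9% lower. In the BAZ1B KO cells 1 was higher at D0, ALAD at 0.43 ± 0.07, and 2 were lower at D6 (median -0.22), with UROS lowest at -0.24 ± 0.06. Over all genes, 1.25% were higher at D0 and 5.97% lower at D6. From D0 to D6 all 8 rose in the BAZ1B WT, BAZ1B KO and H2A.X KO cells, and 0 passed in the H2A.X WT cells. With the correction for length and GC content, 5 were lower in H2A.X KO cells at D0 (median -0.75), UROD among them at -0.99 (edgeR adjusted p = 0.00615), and 1 was higher and 0 lower at D6. Over all genes, 11.7% were then lower at D0 and 10.3% higher at D6.

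Of 21 tested transcription factors and RNA-binding proteins known to act on globin genes, 2 were higher and 6 lower in H2A.X KO cells at D0 (median -0.15). LIN28B, an RNA-binding protein of fetal development, was lowest at -5.23 ± 0.95 (SE, edgeR adjusted p = 0.0067), and MYB, a factor of erythroid progenitors, was highest at 1.05 ± 0.30 (SE, edgeR adjusted p = 0.0234). At D6, 9 were higher and 2 lower (median 0.56), with SOX6, a repressor of embryonic and fetal globin, highest at 2.52 ± 0.72 (SE, edgeR adjusted p = 0.019). Over all genes, 35.1% were called at D0 and 43.1% at D6 in these comparisons. In BAZ1B KO cells 0 passed at D0 (median 0.01), and at D6, 2 were higher and 1 lower (median -0.03): SOX6 was at -0.96 ± 0.13 (SE, edgeR adjusted p = 0.000429) and MYB at 0.55 ± 0.06 (SE, edgeR adjusted p = 0.000113). Of 7 genes that sense heme or free globin, 1 was lower in H2A.X KO cells at D0, the stress factor ATF4 at -1.25 ± 0.21 (SE, edgeR adjusted p = 0.00552), and 3 were higher and 1 lower at D6. In BAZ1B KO cells 0 passed at D0 and 3 were lower at D6, with the heme oxygenase gene HMOX1 lowest at -1.67 ± 0.32 (SE, edgeR adjusted p = 0.00422). Among 8 tested neighbours of the alpha cluster, 2 were lower at D0 and 5 at D6 in H2A.X KO cells (medians -0.69 and -0.84), and 0 passed at either day in BAZ1B KO cells (medians -0.05 and -0.03). With the correction for length and GC content, 10 of the 21 factors were lower and 0 higher in H2A.X KO cells at D0, with LIN28B at -5.76 (edgeR adjusted p = 0.00622) and MYB, no longer called, at 0.83 (edgeR adjusted p = 0.0534). At D6, 2 were higher and 2 lower there, and SOX6 was not called, at 1.44 (edgeR adjusted p = 0.137). Of the sensing genes 2 were lower at D0, ATF4 among them at -0.74 (edgeR adjusted p = 0.0268), and 0 of the 8 neighbours passed at either day.

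Of the 12 erythroid markers, 1 was higher and 4 lower in H2A.X KO cells at D0, with the anion exchanger gene SLC4A1 lowest at -2.75 ± 0.84 (SE), and 7 were higher and 0 lower at D6. Over all genes, 18.4% were higher and 16.7% lower at D0, and 22.2% were higher and 20.9% lower at D6. With the correction for length and GC content 3 were lower at D0 and 6 higher at D6, and 0 moved the other way. Of all genes, 11.7% were then lower at D0 and 10.3% higher at D6. In BAZ1B KO cells SLC4A1 alone was lower at D0, at -2.88 ± 0.25 (SE, edgeR adjusted p = 2.53e-05), and 5 were lower and 0 higher at D6, with the carbonic anhydrase gene CA2 lowest at -1.04 ± 0.09 (SE, edgeR adjusted p = 1.97e-05). Of all genes, 2.64% were lower and 1.25% higher at D0, and 5.97% were lower and 6.87% higher at D6. Mast cell and eosinophil markers summed to 211 to 230 CPM in BAZ1B WT and 218 to 305 in BAZ1B KO libraries at D0, with 2 of 5 tested higher in KO, and to 10.9 to 14.7 and 3.54 to 12.2 at D6. Megakaryocyte markers summed to 75.5 to 79.8 in WT and 36.1 to 72.6 in KO libraries of that experiment at D0. They summed to 7.84 to 9.73 and 1.31 to 4.57 at D6. There ITGA2B, an integrin gene of megakaryocytes and platelets and the 1 marker tested, was lower in KO at -1.59 (edgeR adjusted p = 0.0066). The H2A.X libraries summed to 8.16 to 10.4 in WT and 36.8 to 84.3 in KO libraries at D0, and to 2.94 to 7.55 and 1.9 to 5.0 at D6. Myeloid markers summed to at most 6.42 in any library. Their part in the differences of globin level was not tested.

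A stricter rule, with an adjusted p under 0.001 and an absolute log2 fold change above 1.5, called 0 members in each of the 5 H2A.X comparisons, where it called 0.166% of all genes in KO against WT at D0, 0.151% at D6, 3.22% from D0 to D6 in KO cells and 0% in the other 2. In the BAZ1B experiment it called 9 members from D0 to D6 in WT and 8 in KO cells (11.7% and 11.5% of all genes), 2 in KO against WT at D6, HBG1 and HBG2 (0.749%), and 0 at D0 (0.360%) and in the difference of the effects (0.0288%).

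The genes whose log2 levels followed a member most closely were ranked by the lower of Pearson's r over the 10 H2A.X and the 12 BAZ1B libraries, among 12870 genes tested in both. The libraries of an experiment share its days and genotypes, so these values are descriptions. For HBB they were NFE2 (0.99 and 0.99), HMGB2 (0.99 and 0.99) and RFESD (0.98 and 0.99), of which NFE2 encodes an erythroid transcription factor. For AHSP they were DCTN3 (0.99 and 0.99), BLVRB (0.99 and 0.99) and CCNB2 (0.99 and 0.99), of which BLVRB encodes biliverdin reductase B. For HBG2 they were AC104561.3 (0.96 and 0.94), AC027682.6 (0.96 and 0.91) and EMC3 (0.89 and 0.91), and these values were lower than those of HBB and AHSP.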

How the data were processed

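RNA of HUDEP-2 cells was sequenced in 22 libraries, 10 in the H2A.X experiment and 12 in the BAZ1B experiment. The authors deposited raw counts of reads per gene, 1 table per experiment, which the submitters' processing notes and the study's methods trace to STAR 2.7.0f on hg38, featureCounts of Subread 1.6.4 with GENCODE 31, and DESeq2 1.22.1 for testing. The labels name a TruSeq RNA kit with 100-base reads and the study's methods a stranded kit with 75-base reads, so both read lengths were used for shared windows. Counts of overlapping genes may not be separable. In the H2A.X experiment 5 of the 6 KO columns have Redo in their name.

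Each table was fitted apart with the quasi-likelihood test of edgeR 4.0.16 (R 4.3.3) on TMM-normalized counts, after a filter with a minimum count of 10 and a total of 15, with 1 coefficient per genotype and day. Calls are Benjamini-Hochberg adjusted p-values under 0.05 over all tested genes. Normalized counts are scaled within an experiment. RPKM use the length of the main transcript and the TMM-normalized total of the tested genes. Balance and share measures were compared by two-sided exact permutation tests over libraries (scipy 1.17.1), with the labels permuted within genotypes for days. Tests of days without a block take the D0 and D6 libraries of a subclone as independent. Without a block, p-values measure the spread between libraries of a genotype and day, each taken as 1 subclone. The edgeR fit was tested on simulated data. Intervals and limits of 3 reads cover counting error only.

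The rule named all 10 members, the extremes of each gene list, and the 3 genes most like HBB, HBG2 and AHSP. HBBP1 and CA2 were named outside it, after their values were seen. The members and lists were chosen with earlier results of these data known. Alternatives were DESeq2 1.42.0, other normalizations, no filter, fewer libraries, blocks, left-out libraries, a stricter call rule and an offset for length and GC content (mgcv 1.9.3, genes from a log2 CPM of 1). The correction of the balance measures and the omission of KO subclone 2 were chosen after seeing the data. D0 and D6 libraries of the 5 H2A.X subclones deviated together from their group means (r between 0.27 and 0.548). The WT subclones both gave 0.548, because deviations within a group of 2 mirror each other. In the BAZ1B WT replicates r was 0.198, -0.0437 and 0.168. Blocked values stand beside the H2A.X results where they changed a call. For KO against WT the block was the replicate number, which is not known to pair KO with WT subclones. The lists were also recomputed with the length and GC correction, after seeing the data. GRCh38 coordinates and transcripts came from GENCODE 44, in which 36434 of the 59087 gene names were found.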

Additional observations from a re-analysis of the deposited data

Results flagged for a closer look

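HBB, the adult beta globin, was the member whose KO effect differed between the days in the BAZ1B experiment: on the log2 scale, the D6 effect less the D0 effect was -0.84 (edgeR adjusted p = 0.0181). Its log2 fold change of KO against WT was 0.55 at D0 (edgeR adjusted p = 0.0155) and -0.29 at D6 (edgeR adjusted p = 0.111).

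The 9 globin genes together showed opposite directions at the 2 days in the BAZ1B experiment. KO minus WT of their share of all reads was 0.096 percentage points at D0, with all 3 KO libraries above the WT libraries, and -0.505 percentage points at D6, with all 3 below. This difference between the days was not tested itself. Groups held 2 or 3 libraries, too few to test whether a single library stood apart.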

How the results depend on the processing

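With upper-quartile normalization, or with the members left out of the normalization, no member's log2 fold change turned its direction and each count of members called stayed within 1.5 times its value. Other settings moved the counts, and the cause was not tested. In this section, where no share of all genes stands beside a count, a change of the members cannot be told apart from one in calling over all genes. The counts were 6 and 2 in H2A.X KO against WT at D0 and D6, 0 and 7 from D0 to D6 in H2A.X WT and KO cells, and 0 for the difference of KO effects between the days. In the BAZ1B experiment they were 3, 5, 10, 10 and 1 in the same order. DESeq2 called 1 member from D0 to D6 in H2A.X WT cells and 6 in BAZ1B KO against WT at D0. Without the filter on low counts, 7 members were called in H2A.X KO against WT at D6, 9 from D0 to D6 in H2A.X WT cells and 6 for the H2A.X difference of effects, and 7 at D0, 8 at D6 and 4 for the difference in the BAZ1B experiment. HBZ had a log2 fold change of -0.036 from D0 to D6 in H2A.X WT cells there. With only the libraries of the compared day or genotype, 1 member was called in H2A.X KO against WT at D6 and 2 from D0 to D6 in H2A.X WT cells. The stricter rule called 0, 0 and 0 members in H2A.X KO against WT at D0 and D6 and from D0 to D6 in H2A.X KO cells, and 0 at D0, 2 at D6 and 0 for the difference in the BAZ1B experiment.

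With the replicate number as a block, 7 members were called in H2A.X KO against WT at D6, and with the subclone as a block 8 from D0 to D6 in H2A.X WT cells, 4 for the H2A.X difference of effects and 2 for the BAZ1B difference. The other 6 counts of members called stayed within 1.5 times. Between KO and WT libraries with 1 number, the correlation of the deviations lay between 0.102 and 0.233 in the H2A.X experiment and between -0.122 and 0.222 in the BAZ1B experiment, and D0 and D6 libraries of a BAZ1B subclone between -0.0437 and 0.55; WT and KO subclones of the H2A.X experiment share 2 numbers. With KO and WT libraries paired by number alone, the fetal share in H2A.X KO minus WT at D6 was 0.0615 percentage points. The fetal share at D6 minus D0 within subclones was 0.0768 percentage points (exact sign-flip p = 0.0107), and the HBA2 share -2.70 percentage points (exact sign-flip p = 0.0605).

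The correction for length and GC content left 3 members called in H2A.X KO against WT at D0, and HBD and HBZ then had log2 fold changes of 0.085 and 0.23. At D6 it turned 7 members from below to above 0, with HBA1 at 0.82, HBA2 at 0.79, HBB at 0.87, HBG1 at 0.18, HBG2 at 1.12, HBM at 1.07 and AHSP at 0.28. HBZ from D0 to D6 in H2A.X WT cells was at -0.35, the HBQ1 difference of H2A.X effects at 0.28, and the globin share in H2A.X KO minus WT at D6 at 2.17 percentage points (1.89 with counts divided by transcript length). With the block added to this correction, 1 member was called from D0 to D6 in H2A.X WT cells, 5 for the H2A.X difference and 2 for the BAZ1B difference. HBD at D0 was at 0.43 in that fit, and at D6 HBA1 was at 0.81, HBA2 was at 0.74, HBB was at 0.92, HBG1 was at 0.35, HBG2 was at 0.81, HBM was at 0.86 and AHSP was at 0.30. HBZ from D0 to D6 in H2A.X WT cells was at -0.34 and the HBQ1 difference at 0.19. Without both libraries of H2A.X KO subclone 2, a choice made after seeing the data, 4 members were called in KO against WT at D6, HBZ had 0.18 from D0 to D6 in KO cells, and the differences of effects of HBG1, HBG2 and HBZ were -0.81, -0.66 and 0.16.

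With each library left out in turn, the members called in H2A.X KO against WT ranged from 0 to 6 at D0 and from 0 to 4 at D6, and from 0 to 1 between the days in WT cells. In the BAZ1B experiment they ranged from 1 to 5 at D0, from 2 to 7 at D6 and from 0 to 1 for the difference of effects. At D6 the log2 fold changes of H2A.X KO against WT ranged from -1.49 to 0.0092 for HBA2, -0.55 to 0.31 for HBB, -2.83 to 0.38 for HBG1, -2.83 to 1.07 for HBG2 and -1.63 to 0.074 for HBM. HBZ ranged from -0.28 to 0.36 between the days in H2A.X WT cells and from -1.74 to 0.13 in KO cells. The H2A.X differences of effects ranged from -1.75 to 1.47 for HBG1, -1.73 to 2.18 for HBG2, -1.74 to 0.11 for HBZ and -1.13 to 0.047 for HBQ1. In BAZ1B KO against WT at D0, HBA2 ranged from -0.074 to 0.13 and HBD from -0.081 to 0.66. The BAZ1B differences of effects ranged from -0.46 to 1.53 for HBG1, -0.17 to 0.75 for HBZ, -0.052 to 0.39 for HBM and -0.14 to 0.022 for HBQ1. In percentage points of H2A.X KO minus WT, the fetal share ranged from -0.0373 to 0.0276 at D0 and from -0.187 to 0.0615 at D6, the HBG2 share from -0.507 to 0.902 and from -0.699 to 1.10, and at D6 the globin share from -1.12 to 0.592 and the HBA2 share from -2.61 to 0.272. AHSP to alpha ranged from -0.26 to 0.20 on the log2 scale at D6. The HBD share in BAZ1B KO minus WT at D0 ranged from -1.23 to 0.181 percentage points. Between the days, the fetal share ranged from 0.0437 to 0.106 and the HBA2 share from -2.90 to -2.17 percentage points.

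Where a left-out library leaves 1 library in a group, its spread was assumed to be that of the other groups. The H2A.X experiment has 2 WT subclones and counts per library below those of the BAZ1B experiment, and with 2 against 3 libraries the exact permutation tests could not go below 0.2. HBZ, HBG1 and the KO levels of HBG2 rest on few reads. The difference of effects has no fit on the libraries of 1 day, and the globin share was not recomputed per distinct window or with other members.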
